A study of Mus musculus with 25 samples.

Results

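The genes followed here in mouse left ventricle belong to neurohormone signalling. They are the receptor genes Adrb1, Adra1a, Adra1b, Adora1, Chrm2, Ednra, Ednrb and Agtr1a, and Ace, the gene of angiotensin-converting enzyme, chosen by name as a list of cardiac neurohormone genes. They are 9 of the 35969 genes in the table and 9 of the 11983 genes that were high enough to be tested, so no member was lost to the filter on low values. Messenger RNA was sequenced from 25 male mice, 5 in each of 5 groups. WT CNTL and GPx4+/- CNTL littermates ate the normal chow, low in fat and with starch as the carbohydrate. WT HFHS and GPx4+/- HFHS mice ate a diet of lard, cholesterol and sucrose, and WT HFHS + Carnosine mice ate that diet and drank carnosine at 80 mM from week 7. Diets began at 8 to 10 weeks of age and lasted 16 weeks, and all mice came from a line kept by crossing to C57BL6/J. The GPx4+/- mice carry 1 disrupted copy of the glutathione peroxidase 4 gene, and GPx4+/- HFHS mice given carnosine were not analysed here.

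Neurohormones reach heart muscle from sympathetic and vagal nerve endings, from blood and from neighbouring cells, and nearly all act through receptors that couple to G proteins. Gs raises cyclic AMP and with it rate and force, Gq opens the phospholipase C route to calcium and growth, and Gi holds cyclic AMP down and opens a potassium channel in pacemaker and atrial cells. Adrb1 encodes the main adrenergic receptor of heart muscle and couples to Gs. Adra1a and Adra1b encode the alpha-1 receptors for noradrenaline, Ednra and Ednrb the receptors for endothelin, and Agtr1a the angiotensin II receptor type 1a, all of which can couple to Gq. Adora1, for adenosine, and Chrm2, for acetylcholine, couple to Gi. Ace is no receptor but the enzyme that cuts angiotensin I to angiotensin II, the ligand of Agtr1a, and that also breaks down bradykinin.

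One finding carries most of what follows, a lower level of Agtr1a in mice on the HFHS diet, so it matters that its reads can be told from those of its near copy. Mice have a second type 1 receptor gene, Agtr1b, on another chromosome. The coding sequences of both, read from the GENCODE M21 transcripts, are 1080 bases long and identical at 90.8% of positions, with 99 differences, and the longest run without one is 66 bases. The 90 coding bases with the most differences, bases 973 to 1062 counted from the start codon, are shown for both genes, with the 20 bases that differ in capitals. They lie at chr13:30381926-30382015 on the plus strand for Agtr1a and at chr3:20315379-20315468 on the minus strand for Agtr1b (GRCm38), each in the only coding exon of its transcript.
Agtr1a: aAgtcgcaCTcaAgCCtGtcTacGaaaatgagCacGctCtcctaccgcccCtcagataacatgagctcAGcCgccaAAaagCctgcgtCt
Agtr1b: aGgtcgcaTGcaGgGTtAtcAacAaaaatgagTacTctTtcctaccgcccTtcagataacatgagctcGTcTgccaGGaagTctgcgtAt
The libraries were read as pairs of 150 bases, longer than the longest run the coding sequences share. Agtr1b was between 0 and 0.020 scaled TPM in every mouse, and Agtr1a between 15.5 and 27.1.

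TPM is a transcript abundance corrected for transcript length and set to a total of 1000000 in each library. It keeps no read depth, so no counting error can be given. Gene values here are sums of TPM over the transcripts of a gene, divided by a factor per library (0.865 to 1.16) that puts the typical gene at the same level in all mice, and are called scaled TPM. The number of genes at 1 TPM or more was between 11652 and 12305 per library, and mitochondrial transcripts took between 31.3% and 48.7% of TPM. Gpx4 itself was between 250.3 and 382.4 scaled TPM in the 10 GPx4+/- mice and between 590.0 and 776.9 in the 15 WT mice, so every library carried its labelled genotype. Columns were assigned by library name. The labels also state a column position, which points to another library's column for 25 of 25 libraries, and by position 12 of 25 would show the Gpx4 level of the other genotype. Gpx4 does not check the diet or carnosine labels, which rest on the names. Atrial genes were high in 5 mice. These were GPx4+/- CNTL replicates 1 and 2, replicate 3 of WT CNTL, replicate 4 of GPx4+/- HFHS and replicate 2 of the carnosine group, with summed levels of 8 atrial markers from 641.8 to 7566 scaled TPM. In the other 20 mice that sum was at most 308.2. GPx4+/- CNTL replicate 2 also held liver transcripts, 1111 scaled TPM over 6 hepatocyte markers. GPx4+/- HFHS replicates 1 and 3 held less, 80.7 and 42.4, and the remaining mice at most 8.64. The 9 genes listed as ventricular cardiomyocyte markers were far above these in each library, between 48602 and 60774 scaled TPM. Whether their sum tells ventricle from atrium was not tested.

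Medians of scaled TPM over 25 mice ran from Ace at 22.3 scaled TPM through Agtr1a at 20.8, Chrm2 at 18.7, Adra1b at 14.9, Ednra at 13.0, Adra1a at 10.5 and Adora1 at 6.48 down to Ednrb at 4.89 and Adrb1 at 4.69. Ace stood at the 74.0th percentile of the tested genes and Adrb1 at the 31.2nd. Because TPM is corrected for length, levels can be set side by side between genes. Only the step from Adra1a to Adora1 parted neighbours without overlap, Adra1a being higher in 25 of 25 mice. Agtr1a was above Chrm2 in 13 of 25 mice and Ednrb above Adrb1 in 16 of 25, so these neighbours did not differ beyond their spread over mice. Chrm2 was above Adra1b in 24 mice, Ednra above Adra1a in 23 and Adora1 above Ednrb in 23, with overlapping ranges. Ace was above Agtr1a in 17 mice and Adra1b above Ednra in 18. The order was the same with TPM as deposited.

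**Figure D1:**
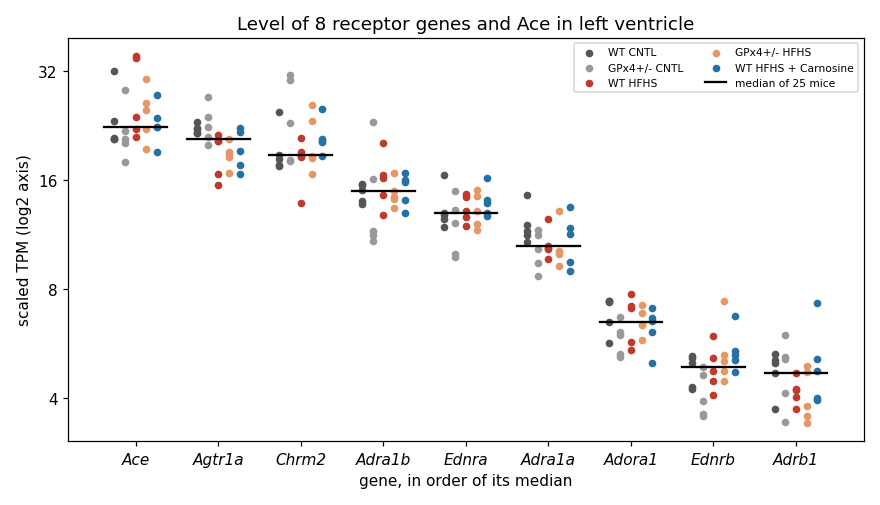
Scaled TPM (log2 axis) of Ace and the 8 receptor genes in each of 25 mice, with genes ordered by their median over all mice (black line) and points coloured by group. Medians fall from 22.3 for Ace to 4.69 for Adrb1, and the only gap between neighbouring genes without overlap is that between Adra1a and Adora1.

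The spread between mice of the same group was smallest for Agtr1a, with a coefficient of variation of 10.5%, and near it for Adora1 (11.9%), Ednra (12.4%) and Adra1a (13.1%). It was 15.8% for Ednrb, 18.7% for Adra1b, 18.9% for Chrm2, 19.2% for Adrb1 and 19.7% for Ace. From the lowest to the highest mouse, levels differed 1.55-fold for Adora1, 1.75-fold for Agtr1a and 2.26-fold for Chrm2.

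The first question was whether 16 weeks of HFHS diet changed these genes. Agtr1a fell. In WT CNTL mice it was 22.2, 21.5, 21.6, 23.0 and 22.1 scaled TPM, and in WT HFHS mice 20.5, 16.6, 20.4, 15.5 and 21.3. All 5 WT HFHS mice lay below the lowest WT CNTL mouse, replicates 2 and 4 by the widest margin. In GPx4+/- CNTL mice it was 20.9, 20.0, 27.1, 23.8 and 22.4, and in GPx4+/- HFHS mice 18.9, 20.8, 19.1, 18.5 and 16.8. Here 4 of the 5 HFHS mice lay below the lowest CNTL mouse, and replicate 2 overlapped. With TPM as deposited the overlap lay in the other genotype. WT HFHS replicate 5 was then 21.3 and WT CNTL replicate 5 was 21.1. The GPx4+/- mice were then at most 19.7 on HFHS and at least 20.8 on CNTL diet.

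Group means of Agtr1a were 22.1 ± 0.615 and 18.9 ± 2.63 (SD, n = 5 each) in WT and 22.8 ± 2.77 and 18.8 ± 1.43 in GPx4+/- mice. Over both genotypes the log2 fold change with HFHS diet was -0.25 ± 0.062 (SE, 95% interval -0.38 to -0.12), a 16.0% lower level, with a Benjamini-Hochberg adjusted p = 0.016 in limma over all 11983 genes. It was the only one of the 9 genes past the adjusted threshold of 0.05 in this comparison. The background for that count is 8.33% of all tested genes called in either direction and 3.65% called lower, so 1 of 9 is near the share in the whole table. The call held under all 32 alternatives and mice left out, with adjusted p from 0.00215 to 0.0378 and log2 fold changes from -0.31 to -0.22.

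Within each genotype the same decrease did not pass the adjusted threshold. In WT mice the log2 fold change of Agtr1a was -0.23 ± 0.087 (adjusted p = 0.19 in limma), and in GPx4+/- mice it was -0.27 ± 0.087 (adjusted p = 0.098). Exact two-sided permutation tests of scaled TPM gave p = 0.00794 in WT mice, the smallest that 5 against 5 allows, and p = 0.0159 in GPx4+/- mice, 2 of 45 such tests run and not adjusted. The difference of both diet effects was -0.037 in log2 (95% interval -0.29 to 0.22), with no call.

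**Figure D2:**
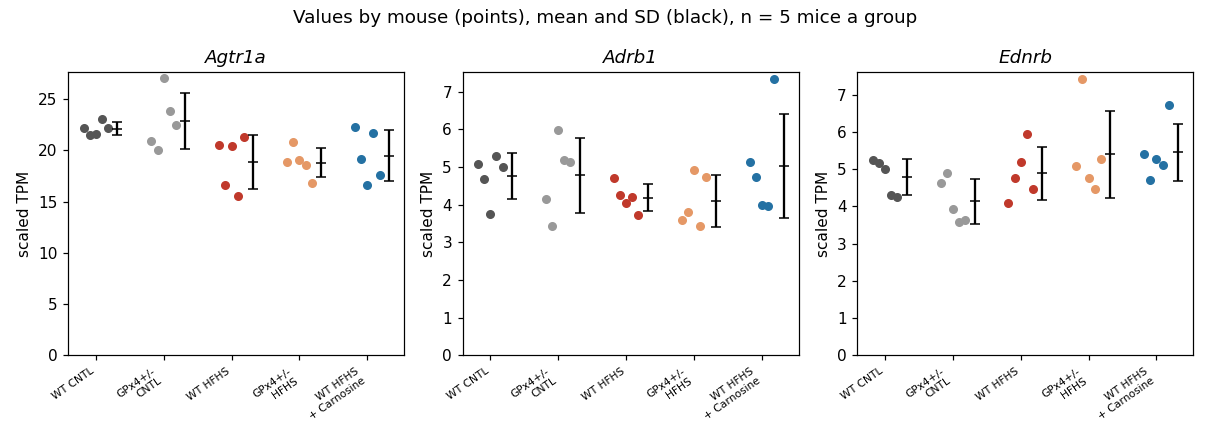
Scaled TPM of Agtr1a, Adrb1 and Ednrb in each of 25 mice by group, with mean and SD (n = 5) in black. All 5 WT HFHS mice lie below the WT CNTL mice for Agtr1a (15.5 to 21.3 against 21.5 to 23.0), while the groups overlap for Adrb1 and Ednrb.

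In bulk tissue, fewer cells of the type that makes a transcript and less of it per cell cannot be told apart. Ventricular cardiomyocyte markers moved with Agtr1a. Their summed level was between 52563 and 60774 scaled TPM in WT CNTL mice (median 59569) and 48602 and 56318 in WT HFHS mice (median 51556). It was between 51684 and 59958 in GPx4+/- CNTL (median 55186) and 49328 and 54653 in GPx4+/- HFHS mice (median 54024). With HFHS diet over both genotypes, 7 of the 9 markers had lower values and 1 was called lower in limma, with a median log2 fold change of -0.12. Over 25 mice Pearson's r between the log2 levels of Agtr1a and of this sum was 0.69, where the points share libraries and scaling factors. The 9 fibroblast markers all had higher values, with 2 called and a median of 0.34, and their sum had r = -0.53 with Agtr1a. The 7 pericyte markers, for cells on the outer side of capillaries, had a median of 0.10 with 0 called and r = -0.047. The macrophage markers were higher in 7 of 7 (0 called, r = -0.64), the smooth muscle markers in 8 of 8 (0 called, r = -0.55) and the endothelial markers in 9 of 10 (1 called, r = -0.49). None of the markers of these 6 lists was at 0 in any mouse. Their part in the lower Agtr1a level was not tested.

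**Figure D3:**
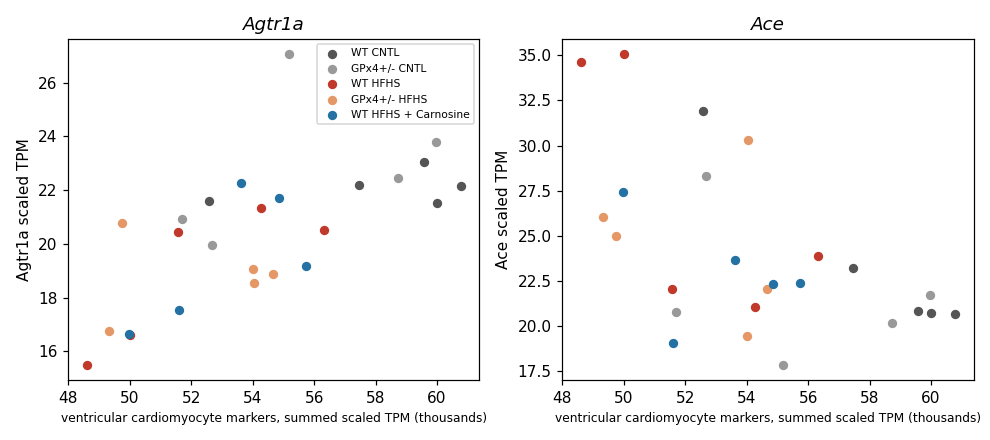
Scaled TPM of Agtr1a (left) and Ace (right) against the summed scaled TPM of 9 ventricular cardiomyocyte markers in 25 mice, coloured by group. Agtr1a was higher and Ace lower in mice with more of these markers (r = 0.69 and r = -0.56 on log2 levels), and most HFHS mice lie towards the left.

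Most of Agtr1a came from the full-length transcript Agtr1a-201, 2199 bases long, with 79.3% of the gene's scaled TPM. It was 18.0 ± 0.34 scaled TPM in WT CNTL and 14.5 ± 2.43 in WT HFHS mice, and 18.4 ± 2.88 and 14.6 ± 1.13 in GPx4+/- CNTL and HFHS mice (SD, n = 5). In WT mice the values, 17.7 to 18.4 against 11.6 to 16.7, did not overlap. Agtr1a-203, a short model of 436 bases with 10.5% of the gene, was 2.19 ± 1.03 and 2.51 ± 0.79 in WT CNTL and WT HFHS mice, and 1.83 ± 0.66 and 2.57 ± 0.64 in the GPx4+/- mice, so its means were no lower on HFHS diet.

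The other angiotensin gene, Ace, was 23.2, 20.8, 31.9, 20.9 and 20.7 scaled TPM in WT CNTL mice and 23.9, 35.0, 22.1, 34.6 and 21.1 in WT HFHS mice. Replicates 2 and 4 of WT HFHS and replicate 3 of WT CNTL stood well above the rest, and the groups overlapped. The same WT HFHS mice had the lowest Agtr1a of their group. GPx4+/- CNTL mice ranged from 17.9 to 28.3 (mean 21.8 ± 3.93) and GPx4+/- HFHS mice from 19.5 to 30.3 (24.6 ± 4.11). Over both genotypes the log2 fold change of Ace was 0.19 (95% interval -0.053 to 0.43), with limma adjusted p = 0.34. Over 25 mice r between Ace and the sum of 9 fibroblast markers was 0.69. It was 0.68 with macrophage, 0.54 with adipocyte and 0.45 with smooth muscle markers, and -0.079 with endothelial and -0.56 with ventricular cardiomyocyte markers. In WT HFHS replicate 4 the fibroblast sum was 761.2, the highest of the 25 mice. There 8 smooth muscle markers summed to 592.7 against a group median of 232.1. The part of these cells in the Ace level was not tested. Ace-201, the long somatic form of 4906 bases, carried 67.3% of the gene and Ace-203 30.6%.

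The adrenergic receptors gave no call with HFHS diet. Adrb1 was 5.09, 4.69, 3.74, 5.30 and 5.01 scaled TPM in WT CNTL mice and 4.70, 4.25, 4.03, 4.21 and 3.73 in WT HFHS mice. In GPx4+/- mice it was 4.15, 3.43, 5.98, 5.19 and 5.13 on CNTL and 3.58, 3.81, 4.93, 3.43 and 4.72 on HFHS diet. The means with HFHS, 4.19 ± 0.354 and 4.10 ± 0.683, were below those on CNTL, 4.77 ± 0.613 and 4.78 ± 0.993, and the groups overlapped. The log2 fold change over both genotypes was -0.18 ± 0.088 (limma adjusted p = 0.22). The lowest CNTL values, 3.74 and 3.43, belong to mice with high atrial genes. Without the 5 mice of high atrial genes, Adrb1 was called lower, with a log2 fold change of -0.28 and limma adjusted p = 0.024. Of these 5, the carnosine mouse was in no fit of diet or genotype, and most of the others ate the CNTL diet. The part of atrial tissue in the Adrb1 level was not tested.

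Adra1a had means of 12.0 ± 1.45 on CNTL and 10.7 ± 1.06 scaled TPM on HFHS diet in WT mice, and of 10.3 ± 1.23 and 10.6 ± 1.50 in GPx4+/- mice. Its log2 fold change with diet over both genotypes was -0.062 (95% interval -0.21 to 0.083), and ran from -0.10 without GPx4+/- HFHS replicate 3 to -0.028 without WT CNTL replicate 5. Without the 5 mice of high atrial genes it was -0.024. Adra1b had means of 14.8 ± 0.853, 16.1 ± 2.78, 14.6 ± 5.23 and 14.7 ± 1.23 in the same order, with a change of 0.086 (-0.14 to 0.32). A single mouse, GPx4+/- CNTL replicate 3, reached 23.1 for Adra1b, where the rest of its group lay between 10.9 and 16.0, and without it the change with diet was 0.18 (limma adjusted p = 0.19). It was 0.043 without GPx4+/- CNTL replicate 4. Adra1a was spread over several transcripts, led by Adra1a-203 with 40.9% and Adra1a-201 with 25.9%. Of Adra1b, 63.8% was Adra1b-203, and Adra1b-202 and Adra1b-204 have the same sequence of 3047 bases and the same value in each mouse, so an equal split between them is no measurement. Adra1b-201 was listed at 0 in all 25 mice.

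The endothelin receptors had higher HFHS than CNTL means in GPx4+/- mice. Ednrb was 4.64, 4.89, 3.94, 3.58 and 3.63 scaled TPM in GPx4+/- CNTL and 5.09, 7.42, 4.77, 4.46 and 5.27 in GPx4+/- HFHS mice. In 3 HFHS mice it lay above the highest CNTL mouse, and replicate 2 stood apart at 7.42. In WT mice Ednrb was 5.25, 5.17, 5.00, 4.30 and 4.25 on CNTL and 4.08, 4.76, 5.19, 5.94 and 4.46 on HFHS diet, and the groups overlapped.

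The log2 fold change of Ednrb was 0.34 ± 0.12 in GPx4+/- mice (limma adjusted p = 0.13, exact permutation p = 0.0397) and 0.019 ± 0.12 in WT mice (adjusted p = 0.95). The difference between genotypes was 0.32 (95% interval -0.037 to 0.67, limma adjusted p = 0.70), so a genotype-dependent response was not shown. Over both genotypes the change was 0.18 ± 0.085 (adjusted p = 0.20). Single mice moved these values, and without replicate 2 of GPx4+/- HFHS the change in GPx4+/- mice was 0.23 and the difference between genotypes 0.21. Without the 5 mice of high atrial genes the change was 0.52 in GPx4+/- mice (limma adjusted p = 0.058) and 0.28 over both genotypes (limma adjusted p = 0.077), and the difference between genotypes 0.49 (limma adjusted p = 0.43). Over 25 mice r between Ednrb and the sum of ventricular cardiomyocyte markers was -0.64. It was 0.41 with endothelial, 0.37 with macrophage and 0.34 with fibroblast markers. The part of these cells in the Ednrb level was not tested. The most abundant transcript, Ednrb-201 with 56.5% of the gene, did pass the threshold when it was tested in place of the sum, with a log2 fold change of 0.29 and limma adjusted p = 0.029. With it the change was 0.28 in GPx4+/- and 0.30 in WT mice, and the difference between genotypes -0.016. Its means were 2.31 ± 0.31 and 2.96 ± 0.44 scaled TPM in WT and 2.45 ± 0.041 and 3.13 ± 0.60 in GPx4+/- mice. Ednrb-203, the shortest form at 2669 bases, went from 1.04 ± 0.12 to 0.73 ± 0.22 in WT mice. In GPx4+/- mice it went from 0.57 ± 0.35 to 0.89 ± 0.22. Ednrb-202, with 27.4% of the gene, ran from 0.017 to 1.99 among GPx4+/- CNTL mice alone. The TPM give no error for the split between forms, so whether the forms differ was not tested. Ednra, the receptor of smooth muscle and heart muscle, had means of 13.3 ± 1.81 and 13.3 ± 1.14 in WT and 12.0 ± 2.16 and 13.3 ± 1.47 in GPx4+/- mice, with a change of 0.077 (95% interval -0.084 to 0.24). That change was 0.044 without GPx4+/- CNTL replicate 3, 0.12 without replicate 2 of that group and 0.18 without the 5 mice of high atrial genes. Over all alternatives its lowest value was 0.026.

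**Figure D4:**
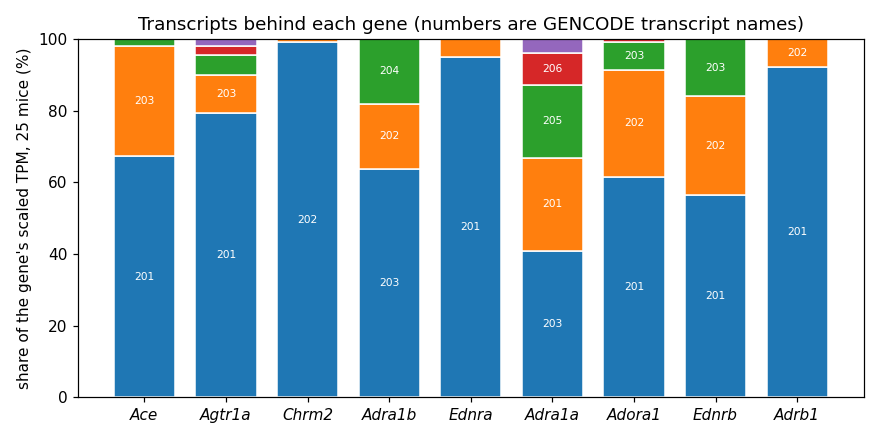
Share of each gene's scaled TPM over 25 mice that was assigned to each of its transcripts, in percent, with the GENCODE transcript number inside the larger segments. Chrm2, Ednra and Adrb1 come almost wholly from 1 transcript, while Adra1a, Adora1 and Ednrb are divided.

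The receptors that couple to Gi gave no call with HFHS diet either. Adora1 had means of 6.87 ± 0.784 in WT CNTL, 6.63 ± 0.996 in WT HFHS, 5.87 ± 0.622 in GPx4+/- CNTL and 6.54 ± 0.545 scaled TPM in GPx4+/- HFHS mice, a change of 0.047 (95% interval -0.097 to 0.19) over both genotypes. It ran from 0.016 without WT CNTL replicate 1 to 0.079 without WT HFHS replicate 2. Chrm2 was 18.7, 18.3, 24.6, 17.5 and 17.5 in WT CNTL and 18.6, 13.8, 20.9, 18.5 and 19.1 in WT HFHS mice. In GPx4+/- CNTL mice it was 30.1, 22.9, 31.2, 18.2 and 18.1, and in GPx4+/- HFHS mice 16.6, 25.7, 18.4, 23.2 and 18.6. The high values of WT CNTL replicate 3 and GPx4+/- CNTL replicates 1 and 2 belong to mice with high atrial genes, while those of GPx4+/- CNTL replicate 3 (31.2) and GPx4+/- HFHS replicate 2 (25.7) do not. Chrm2 changed by -0.15 (95% interval -0.38 to 0.086) with diet, by -0.097 without GPx4+/- CNTL replicate 3 and by -0.074 without the 5 mice of high atrial genes, and its r with the sum of atrial markers was 0.55 over 25 mice. It was 0.59 with 6 Schwann cell markers, which summed to at most 11.7 scaled TPM, -0.48 with pericyte and -0.44 with endothelial markers. The part of these cells in Chrm2 was not tested.

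In counts, 0 of 9 genes were called in WT mice, where limma called 1.19% of all tested genes, and 0 of 9 in GPx4+/- mice, where it called 3.34%. At an unadjusted limma p under 0.05 there was 1 of 9 in WT mice (Agtr1a, background 16.5%), 2 of 9 in GPx4+/- mice (Agtr1a and Ednrb, 18.4%) and 2 of 9 over both genotypes (the same names, 24.5%). In scaled TPM the diet groups did not overlap for 1 of 9 genes in WT mice (background 4.51%) and for 0 of 9 in GPx4+/- mice (4.47%). The median log2 fold change of the 9 genes over both genotypes was 0.047, and that of all tested genes was -0.00240. Without sign, the median size of the change was 0.15 for the 9 genes and 0.078 for all tested genes over both genotypes, 0.17 and 0.096 in GPx4+/- mice, and 0.10 and 0.092 in WT mice. The difference between the list and the table was not tested. The shares of all tested genes called within a genotype depended on the processing and on single mice. In WT mice limma called 0.317% with TPM as deposited and 3.38% with array weights. The genes called fell from 142 to 36 in WT mice without replicate 2 of WT CNTL and to 43 without replicate 4, and from 400 to 191 in GPx4+/- mice without replicate 5 of GPx4+/- HFHS and to 192 without replicate 1 of GPx4+/- CNTL.

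**Figure D5:**
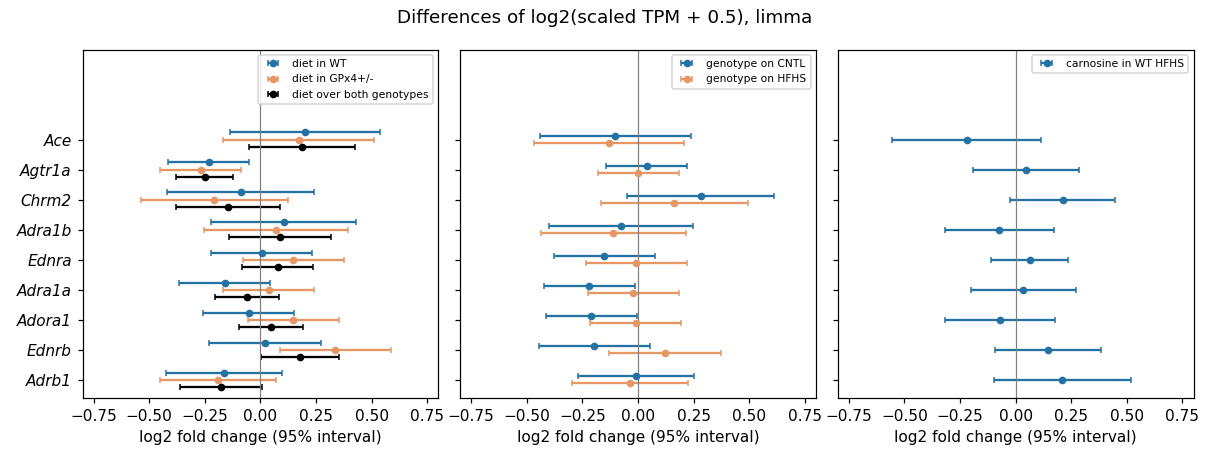
Log2 fold changes with 95% intervals from limma for the 9 genes with HFHS diet (left), with GPx4+/- genotype (middle) and with carnosine (right). The interval of Agtr1a lies below 0 in all 3 diet comparisons, and the intervals for carnosine all include 0.

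The next question was whether loss of 1 Gpx4 copy changed the same genes. Limma called 0 of 9 on CNTL diet, 0 of 9 on HFHS diet and 0 of 9 over both diets, with backgrounds of 0.0501%, 0.0501% and 0.0584% of all tested genes. At an unadjusted limma p under 0.05 there were 2 of 9 on CNTL diet (background 6.29%), 0 of 9 on HFHS diet (4.56%) and 0 of 9 over both diets (3.89%). The 2 were lower in GPx4+/- CNTL mice. Adora1 was 6.00, 6.72, 5.20, 5.31 and 6.11 scaled TPM there, against 5.67, 6.48, 7.36, 7.43 and 7.43 in WT CNTL mice, a log2 fold change of -0.21 ± 0.098 (limma adjusted p = 0.79). Of its transcripts, Adora1-201 was 3.92 ± 0.48 against 4.47 ± 0.57 and Adora1-203, a lesser form with 7.97% of the gene, 0.10 ± 0.23 against 0.86 ± 0.58 (SD, n = 5). Adora1-202, with 29.7% of the gene, had a higher mean instead, 1.84 ± 0.34 against 1.43 ± 0.39. Adora1-203 ranged from 0 to 0.51 in GPx4+/- CNTL and from 0.30 to 1.78 in WT CNTL mice. The TPM give no error for the split between these forms. Adra1a was 11.6, 10.3, 11.3, 8.69 and 9.44 against 10.8, 11.3, 12.0, 11.5 and 14.5, a log2 fold change of -0.22 ± 0.098 (limma adjusted p = 0.78). Both pairs of groups overlapped. On HFHS diet the same differences were -0.011 (95% interval -0.22 to 0.19) and -0.022 (-0.23 to 0.18).

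Chrm2 had the largest genotype difference of the 9 in size, 0.22 (95% interval -0.011 to 0.46) over both diets and 0.28 (-0.048 to 0.61) on CNTL diet, with limma adjusted p = 1.00 and 0.83. Without replicate 3 of GPx4+/- CNTL the difference on CNTL diet was 0.18, and without the 5 mice of high atrial genes it was 0.26. The atrial markers had higher values in GPx4+/- CNTL mice for 6 of 7 tested, with 0 called and a median log2 fold change of 0.89. Agtr1a differed by 0.020 (95% interval -0.11 to 0.15) over both diets. Groups did not overlap for 0 of 9 genes on CNTL diet (background 0.926%) and for 0 of 9 on HFHS diet (0.726%). For the interaction of diet and genotype limma called 0 of 9 and 0% of all tested genes, and at an unadjusted p under 0.05 there were 0 of 9 (background 7.14%).

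Carnosine was compared in WT HFHS mice. Limma called 0 of 9 genes and 0% of all tested genes, and at an unadjusted p under 0.05 there were 0 of 9 (background 4.21%). Groups did not overlap for 0 of 9 genes (background 0.609%). Agtr1a was 22.3, 19.2, 16.6, 21.7 and 17.5 scaled TPM with carnosine, with a mean of 19.5 ± 2.48 against 18.9 ± 2.63 without it, a log2 fold change of 0.045 (95% interval -0.19 to 0.28). Chrm2 was 20.5, 25.0, 20.3, 18.6 and 20.8 with carnosine, where the highest is a mouse with high atrial genes, with a change of 0.21 (-0.025 to 0.45, limma adjusted p = 0.95). Without replicate 2 of WT HFHS, the lowest of the comparison at 13.8, that change was 0.12. Adrb1 was 5.13, 4.75, 4.00, 3.96 and 7.33, where replicate 5 stood above every other mouse of the study, with a change of 0.21 (-0.098 to 0.52) that was 0.078 without it. Ace had a mean of 23.0 ± 3.00 against 27.3 ± 6.92 and a change of -0.22 (-0.56 to 0.12), or -0.12 without WT HFHS replicate 2 and -0.13 without replicate 4. Smooth muscle markers had lower values with carnosine in 8 of 8, fibroblast markers in 8 of 9 and macrophage markers in 3 of 7, with 0 called. Their part in the Ace change was not tested. The intervals differed in width between genes. That of Ednra was the narrowest, -0.11 to 0.24 around a change of 0.064 (0.010 to 0.097 with mice left out singly), and those of Ace and Adrb1 were the widest.

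Around these genes, 85 genes of the same pathways were counted in 6 lists, of which 63 were tested. With HFHS diet over both genotypes, limma called 6 of the 63 higher and 1 lower, 11.1% of them, against 8.33% of all tested genes, and the median log2 fold change was 0.032. Limma called 1 higher and 1 lower in WT mice, 3.17% against a background of 1.19%, and 4 higher and 0 lower in GPx4+/- mice, 6.35% against 3.34%. It called 0 for genotype, carnosine or the interaction. None of these differences in share was tested.

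Of 16 other receptors of the same ligands only 3 were tested, with 0 called. The highest were Adora2a, the adenosine receptor of vessels and immune cells, at a mean of 6.25 scaled TPM, and Adra1d at 2.02. Agtr2, the opposing angiotensin receptor, had a mean of 0.013 scaled TPM and Chrm5 was listed at 0 in all mice. Mas1, the receptor for a shorter angiotensin peptide, had a mean of 0.723, below the levels of Agtr1a.

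Ligands and their enzymes held 5 of the 7 calls among 16 tested. Edn3, which encodes endothelin 3, the ligand that Ednrb binds as well as it binds endothelin 1, rose by 1.27 in log2 over both genotypes (limma adjusted p = 0.00100). Its CNTL and HFHS means were 1.36 ± 0.914 and 3.16 ± 0.469 scaled TPM in WT (limma adjusted p = 0.072) and 0.829 ± 0.474 and 2.89 ± 0.606 in GPx4+/- mice (limma adjusted p = 0.013). With carnosine its mean was 3.91 ± 1.97. Edn1, for endothelin 1, had a change of 0.070 (limma adjusted p = 0.64). Slc22a3, a transporter that clears noradrenaline into cells, rose by 0.52 over both genotypes (limma adjusted p = 0.000858). Its means were 3.06 ± 0.219 and 4.46 ± 0.914 in WT (limma adjusted p = 0.067) and 3.05 ± 0.671 and 4.72 ± 0.390 in GPx4+/- mice (limma adjusted p = 0.013).

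Mme, for neprilysin, which breaks down natriuretic and other peptides, rose by 0.34 (limma adjusted p = 0.00550). Lnpep, for the aminopeptidase that binds angiotensin IV, fell by 0.23 on the log2 scale (limma adjusted p = 0.00472). Its means were 25.8 ± 0.915 and 20.2 ± 1.65 scaled TPM in WT mice, where it was called (-0.34, limma adjusted p = 0.013), and 25.6 ± 1.44 and 23.7 ± 2.29 in GPx4+/- mice, where it was not (-0.11, limma adjusted p = 0.40). The difference between genotypes was 0.24 in log2 and did not pass the test (limma adjusted p = 0.68). Adk, adenosine kinase, was the highest of the list at 99.8 scaled TPM and did not pass the test (-0.010, limma adjusted p = 0.92). The call was lost for Mme with its most abundant transcript (0.20, limma adjusted p = 0.23).

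Of 15 tested genes of Gs and cyclic AMP, Pde4a, a phosphodiesterase that breaks down cyclic AMP, rose by 0.25 over both genotypes (limma adjusted p = 0.0019), a call that was lost with TPM as deposited (0.20, adjusted p = 0.058). Its means were 26.6 ± 1.35 and 31.7 ± 2.64 scaled TPM in WT (limma adjusted p = 0.060) and 26.7 ± 1.30 and 31.9 ± 2.71 in GPx4+/- mice (limma adjusted p = 0.036). Gnas, the Gs alpha subunit at a mean of 515.2 scaled TPM, and Prkaca, the catalytic subunit of protein kinase A at 125.9, did not pass. Of 7 receptor kinases and arrestins, Grk5, which phosphorylates activated receptors, rose by 0.41 over both genotypes (limma adjusted p = 0.00600) and passed in neither alone. Its means were 10.4 ± 1.29 and 14.6 ± 2.58 in WT (limma adjusted p = 0.067) and 10.1 ± 1.11 and 13.2 ± 1.96 in GPx4+/- mice (limma adjusted p = 0.11). Grk2, the most abundant of that list at 29.8, had a change of 0.030 (limma adjusted p = 0.81).

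Limma called 0 of 12 tested genes of Gq and phospholipase C and 0 of 10 of Gi and its channel. Plcb4 and Gna11 were the most abundant of the first list, at 31.9 and 27.6 scaled TPM. Rgs5 and Gnai2 led the other, at 171.3 and 126.3. Kcnj3, a subunit of the potassium channel that Chrm2 and Adora1 open, ranged from 17.2 to 56.0 over the mice.

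The genes whose log2 level was most like that of each member over the 25 mice are given as a description, with Pearson's r. They were Abhd18 (0.81), Fam69b (0.81) and Dgke (0.81) for Agtr1a, and Pi16 (0.89), Fibin (0.89) and Anxa4 (0.88) for Ace. For the adrenergic receptors they were Trim8 (0.77), Lclat1 (0.76) and Pik3c2b (0.76) with Adrb1, Sptb (0.71), Bach1 (0.70) and Cmya5 (0.70) with Adra1a, and Acot1 (0.83), Palld (0.75) and E4f1 (0.71) with Adra1b. For the endothelin receptors they were Slc25a25 (0.73), Klhl2 (0.72) and C1qtnf6 (0.70) with Ednra and Dync1li2 (0.81), Calu (0.81) and Mtpn (0.78) with Ednrb. For the receptors that couple to Gi they were Sar1a (0.68) and Maff (0.68) with Adora1 and Cab39l (0.88), Rabgap1l (0.86) and Cd47 (0.84) with Chrm2. The points share libraries and scaling factors, and the best of 11982 genes is high by selection.

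Among the members themselves r ran from -0.60 for Agtr1a with Ace to 0.59 for Adora1 with Ednra. With each group's mean taken out, these were -0.58 and 0.58, so both relations lay within groups as well. The highest r was then 0.64, for Adra1b with Chrm2, which had 0.43 before. Mice with more Agtr1a tended to have less Ace. The r of Agtr1a and of Ace with ventricular cardiomyocyte markers was 0.69 and -0.56 over 25 mice. It was -0.53 and 0.69 with fibroblast and -0.64 and 0.68 with macrophage markers. With endothelial markers both were negative, -0.49 and -0.079. The part of these cells in the relation of Agtr1a and Ace was not tested.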

How the data were processed

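The members, lists and alternatives were chosen with earlier results of these data known. The authors deposited TPM for 119215 transcripts in 25 libraries, from left ventricular mRNA read as pairs of 150 bases. The submitters' processing notes name kallisto 0.43.1, sleuth 0.30.0 and GRCm38, without their roles. Columns were matched by library name, not by the column position that the labels also state and that disagrees with the names, and each mouse got its group and number from its own label. Transcript lengths in the same table were not used.

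TPM of 116772 transcripts with a GENCODE M21 gene were summed per gene, divided by median-ratio factors and log2-transformed after adding a pseudocount of 0.5, so fold changes of low genes are understated. Genes that averaged 1 scaled TPM or more entered limma 3.58.1 (R 4.3.3, trend, Benjamini-Hochberg over 11983 genes). Since TPM are not counts, limma took the place of the study's count test. The 20 mice without carnosine shared a fit, and carnosine was fitted in the 10 WT HFHS mice. The fits were tested on simulated data with known changes. Exact permutation tests were two-sided. Named genes are the members, pathway genes called in any comparison or the highest 2 of a list, the 3 genes most like each member, and Gpx4. Edn1, Agtr1b, Agtr2, Chrm5, Mas1 and Kcnj3 were added for their role. Some genes that this rule names are not reported here.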

Additional observations from a re-analysis of the deposited data

Results flagged for a closer look

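In each group of 5 mice, the highest and lowest value of each member were compared with the rest, in 45 groups of values. The distance from such a mouse to its neighbour, divided by the range of the group, passed 0.71 in 5 of them, where chance alone gives about 1 in 20. Replicate 3 of WT CNTL, a mouse with high atrial genes, was the highest for 3 members. Its Chrm2 was 24.6 scaled TPM against 18.7 in the nearest mouse (0.828 of the range), its Ace 31.9 against 23.2 (0.775) and its Ednra 16.5 against 13.0 (0.755). In GPx4+/- HFHS mice, Adra1a was 13.2 in replicate 3 against 10.2 in the nearest (0.766), and Ednrb 7.42 in replicate 2 against 5.27 (0.727). The part of atrial tissue in the first 3 was not tested.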

How the results depend on the processing

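The numbers of members called and the fold changes of members and called pathway genes were recomputed with a pseudocount of 0.1 or 1, with no filter or a minimum of 5, with TPM as deposited, quantile normalization, the most abundant transcript, other sets of mice, array weights, the replicate number as a block, and without mice singly or the 5 with high atrial genes. The number of members called went from 0 to 1 in GPx4+/- mice with TPM as deposited (Agtr1a, -0.37, limma adjusted p = 0.013), where 3.54% of all genes were called. That scale moved the median of all genes by -0.10 there, and the share of higher genes among calls from 65.2% to 8.73%, and from 56.2% to 20.1% over both genotypes. Over both genotypes it went from 1 to 2 with the most abundant transcript (with Ednrb, background 7.19%) and to 2 without the 5 mice of high atrial genes (with Adrb1, 7.36%). Leaving out any single mouse changed no count of members called, though it changed how many of all genes were. With at least 5 scaled TPM, Adrb1 and Ednrb were not tested.

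With the replicate block, 1 member was called over both genotypes and 0 in the other comparisons, as without it, while genes called fell from 142 to 68 in WT mice. The paired numbers name different animals. Same-numbered mice deviated alike (r over 0.1) in 6 of 25 pairs, and in 0 of the 5 comparisons in every pair.

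Of 72 differences of members, 30 changed sign under at least 1 alternative, with 0 called there. Of those reported, Adora1 with diet over both genotypes was -0.00151 with TPM as deposited and -0.10 with its most abundant transcript, and the Ednrb interaction was -0.016 with that transcript. Genotype on HFHS diet was 0.048 for Adora1 with its most abundant transcript, and 0.00528 for Adora1 and 0.000747 for Adra1a with array weights. Carnosine was -0.00627 for Ednra with TPM as deposited. For Agtr1a, genotype on HFHS diet was -0.071 with TPM as deposited and -0.025 with array weights, genotype over both diets -0.00429 with array weights, carnosine -0.025 with TPM as deposited, and the interaction 0.00592 with the most abundant transcript. With mice left out singly, genotype on HFHS diet ran from -0.074 to 0.044 for Adora1 and -0.10 to 0.033 for Adra1a. Ednrb with diet in WT mice ran from -0.048 to 0.075, and it was 0.30 with its most abundant transcript. Agtr1a then ran from -0.023 to 0.084 for genotype on CNTL diet, -0.064 to 0.048 on HFHS diet and -0.013 to 0.043 over both, from -0.021 to 0.098 for carnosine, and from -0.10 to 0.025 for the interaction. The cause was not tested.

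Depth is not kept in TPM, so low members such as Adrb1 carry a counting error that cannot be given, and p-values measure the spread between single mice.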
